A study of Homo sapiens with 12 samples.

Results

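The dual-specificity MAP kinase phosphatases were examined in OCI-AML3, a human leukaemia cell line of acute myeloid origin. They are the rows of the deposited count table with 9 gene symbols, taken from 54628 in all: DUSP5, DUSP6 and DUSP7, which prefer ERK; DUSP1, DUSP2 and DUSP4, nuclear enzymes that accept several MAP kinases; and DUSP8, DUSP10 and DUSP16, which are directed at JNK and p38. Poly(A) RNA was sequenced as paired ends from 12 libraries in 4 groups of 3. All cells were OCI-AML3 and were treated for 24 h with DMSO (the solvent control), with ABT199 (venetoclax, an inhibitor of the survival protein BCL2), with an ERK inhibitor labelled ERKi (compound 27), or with ABT199 and ERKi together (the combination). No dose is stated in the labels, the cells are of 1 line, and the labels do not say whether replicates are separate cultures. P-values therefore cover the spread among these libraries, possibly a technical one. Of the 9 genes, 8 passed the filter on low counts, and DUSP8 did not.

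MAP kinases are switched on by phosphorylation of a threonine and a tyrosine in the activation loop, and these phosphatases remove both phosphates. Each carries an amino-terminal domain that docks the kinase and sets the preference for ERK, JNK or p38, and a carboxy-terminal catalytic domain. Several are themselves induced by the kinase they switch off, so that their transcripts serve as a readout of the pathway as well as a brake on it. DUSP6 and DUSP7 act in the cytoplasm and DUSP5 in the nucleus. DUSP1 is an immediate early gene that also responds to stress and glucocorticoids, and DUSP2 was first known from activated blood cells.

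Library totals ran from 19199296 to 21275065 counts. One library, DMSO replicate 1, differed from its group: its chi-square statistics relative to the degrees of freedom were 16.3 and 15.37, where replicate pairs elsewhere gave 2.26 to 5.11. Results that turn on it are given with and without it. All 9 myeloid marker genes passed the filter, and 8 of them rose and 1 fell with ERKi. Their summed level was 1390 to 1430 CPM (counts scaled to 1e+06 per library) with DMSO, 1310 to 1340 with venetoclax, 4640 to 4790 with ERKi and 6090 to 6330 in the combination. LYZ (lysozyme) carried much of this change, with means of 208.7, 176.2, 2434 and 3990 CPM in the same order. CD33 rose 1.23-fold with ERKi, while MPO fell from 1.72 to 0.996 CPM (adjusted p = 0.00799). In the combination MPO averaged 3.11 CPM and was called higher than with DMSO (adjusted p = 0.00233). All 9 myeloid markers were called higher there, where 30.4% of all genes were. No T cell, erythroid or endothelial marker passed the filter, and CD3D, CD3G, MS4A1, HBB, CDH5 and EPCAM were at 0 in all 12 libraries. The 6 fibroblast markers summed to 6.23 to 35.0 CPM with DMSO, 13.2 to 24.4 with venetoclax, 10.4 to 25.2 with ERKi and 2.1 to 2.48 in the combination, with 4 of the 6 passing the filter. The 5 epithelial markers, of which 1 passed the filter, summed to 0 to 1.8 CPM in the first 3 groups and 0 to 0.157 in the combination, and the 4 B cell markers to 0.811 to 2.71 CPM over all groups. The epithelial marker that passed, KRT19, held 16, 13 and 27 counts in replicate 2 of DMSO, venetoclax and ERKi and 0 in the other 9 libraries, replicate 2 of the combination included. The part of these markers in the values of the combination below was not tested.

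In cells given DMSO the family was dominated by DUSP7. Divided by the exon length of each gene, its level with DMSO was 18.2 ± 1.53 CPM per kb (SD, n = 3), against 3.18 ± 0.138 for DUSP6, 2.78 ± 0.356 for DUSP10 and 2.68 ± 0.237 for DUSP5. The libraries of DUSP6 and DUSP10 overlapped, as did those of DUSP10 and DUSP5, so the order of these neighbours is not resolved. DUSP4 (2.00 ± 0.144) and DUSP2 (2.00 ± 0.248) also overlapped, followed by DUSP16 (1.29 ± 0.112) and DUSP1 (0.693 ± 0.104 CPM per kb) with no overlap between them.

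DUSP8, a phosphatase of JNK and p38 best known from brain and heart, held 1 count in DMSO replicate 2 and 0 in the other libraries. A count of 0 allows up to 3 counts, which is 0.139 to 0.162 CPM in these libraries, for counting error only. DUSP9, the remaining member of the family and outside the 9 genes, held 16, 19 and 13 counts with DMSO, 12, 11 and 11 with venetoclax, 1, 1 and 0 with ERKi and 1, 0 and 1 in the combination. It passed the filter only through the groups in which it was high, and was called lower with ERKi (adjusted p = 1.04e-05) and in the combination (adjusted p = 2.16e-05) against DMSO. With 0 or 1 count per library in these groups, no fold is given.

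**Figure D1:**
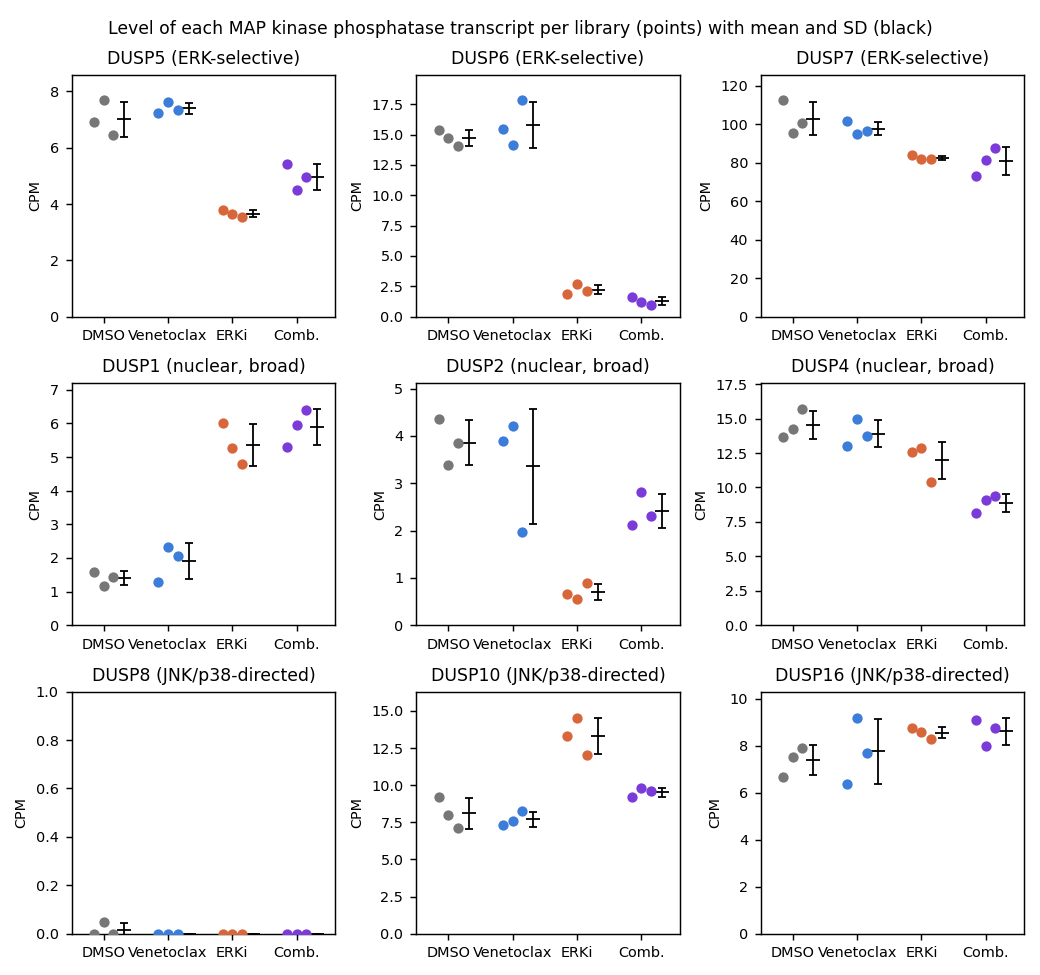
Level of each of the 9 transcripts in CPM (vertical axes, each from 0) in the 12 libraries; points are libraries and black bars the mean and SD of 3. DUSP6 and DUSP2 dropped with ERKi, DUSP1 and DUSP10 rose, and DUSP8 held a single count.

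The first question was how the phosphatases respond when only ERK is inhibited. With ERKi against DMSO, of the 8 tested, 2 rose and 5 fell, where 34.5% of all 15173 tested genes rose and 35.2% fell. Since 69.7% of genes changed in either direction, the share of phosphatases called is no result by itself. The groups did not overlap in 35.5% of all genes upward and 35.6% downward. The median log2 fold change of the 8 was -0.30, against 0.01 over all genes tested.

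All 3 ERK-selective genes fell. DUSP6, the cytoplasmic ERK phosphatase on chromosome 12 (89347235 to 89352501, minus strand, GRCh38), read 15.4, 14.7 and 14.1 CPM with DMSO and 1.90, 2.68 and 2.14 with ERKi. The groups lay far apart, and the level with ERKi was 6.55-fold lower (log2 fold change -2.71, SE of 0.155, adjusted p = 1.03e-10). Exons of DUSP6 overlap the antisense gene AC024909.2 in GENCODE 29. Whether the counting used strand is unstated in the sources used, and without strand reads of the 2 genes cannot be told apart. The deposited counts hold no row under the symbol AC024909.2, so its share in the DUSP6 counts could not be tested.

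DUSP5, the nuclear ERK phosphatase on chromosome 10 (110497907 to 110511533, plus strand), read 6.91, 7.68 and 6.45 CPM with DMSO and 3.79, 3.65 and 3.54 with ERKi. Its log2 fold change was -0.94, with an SE of 0.128 and an adjusted p of 5.49e-06, and every ERKi library lay below every DMSO library. DUSP7, the second cytoplasmic ERK phosphatase, on chromosome 3 (52048919 to 52056571, minus strand), read 112, 95.5 and 101 CPM with DMSO and 83.9, 82.0 and 81.8 with ERKi. Its fall was shallow, at -0.32 (SE of 0.0669, adjusted p = 0.000486), although the groups did not overlap. The log2 fold changes of the 3 ERK-selective transcripts thus ranged from -2.71 to -0.32.

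The nuclear, broadly acting genes moved in opposite directions. DUSP1, on chromosome 5 (172768096 to 172771195, minus strand), read 1.60, 1.18 and 1.42 CPM with DMSO and 6.02, 5.26 and 4.8 with ERKi. It rose 3.82-fold (log2 fold change 1.94, SE 0.207, adjusted p = 2.99e-07), from 25 to 33 counts per library to 103 to 127. DUSP2, on chromosome 2 (96143169 to 96145440, minus strand), read 4.35, 3.39 and 3.84 CPM with DMSO and 0.66, 0.55 and 0.88 with ERKi. It was 5.47-fold lower (log2 fold change -2.45, SE 0.287, adjusted p = 9.09e-07), close in size to DUSP6.

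The promoter windows of DUSP1 and DUSP2 are shown because these genes of one class moved furthest apart. They are the 250 bases before the RefSeq start (GRCh38.p14), at chr5:172771196-172771445 and chr2:96145441-96145690, both on the minus strand and written 5′ to 3′. Capitals mark TGACGTCA (the cAMP response element), its core TGACG, which the full element contains, and the E-box CACGTG, on either strand.
DUSP1: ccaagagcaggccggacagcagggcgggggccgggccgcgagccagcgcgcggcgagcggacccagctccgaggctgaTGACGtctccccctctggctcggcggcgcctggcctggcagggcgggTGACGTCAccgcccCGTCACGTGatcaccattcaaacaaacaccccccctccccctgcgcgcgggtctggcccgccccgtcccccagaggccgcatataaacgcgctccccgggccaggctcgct
DUSP2: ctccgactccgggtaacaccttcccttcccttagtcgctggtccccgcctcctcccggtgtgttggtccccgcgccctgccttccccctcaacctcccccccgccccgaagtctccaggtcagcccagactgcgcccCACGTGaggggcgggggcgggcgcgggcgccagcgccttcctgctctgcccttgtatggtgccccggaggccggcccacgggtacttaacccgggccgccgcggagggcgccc

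The DUSP1 window held TGACGTCA once, starting 125 bases before the start, and TGACG 4 times, of which 2 lie within that element. Of 35116 RefSeq windows of this length, 1.65% held TGACGTCA and 21.2% held the core TGACG. The E-box, in 6.34% of windows, stood 108 bases before the start of DUSP1 and 113 before that of DUSP2. The DUSP1 window also held TATAAA, 30 bases before the start (10.7% of windows). The DUSP2 window held GCGNGGGCG, the letters bound by EGR factors, at 93 and 103 bases before the start. Of all windows, 8.41% held these letters at least once, and the share holding them more often was not counted.

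RefSeq windows were matched for 7 of the 9 genes, and those of DUSP6 and DUSP10 were searched with the others (1 window each, and 2 for DUSP10). The windows of DUSP6, DUSP7 and DUSP10 held none of the 8 motifs searched, which also included TGANTCA (AP-1, 6.57% of windows), CCGGAAG (ETS, 8.52%) and the CArG box of SRF (1.16%). In GENCODE 29 the window of DUSP6 and 1 of those of DUSP10 overlap exons of the gene itself. DUSP8, with its single count, held TGACGTCA 2 times, and DUSP16 held GCGNGGGCG once. DUSP4 and DUSP5 had no entry.

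DUSP4, on chromosome 8 (29333064 to 29350684, minus strand), read 13.7, 14.2 and 15.7 CPM with DMSO and 12.6, 12.9 and 10.4 with ERKi. Its small fall, at -0.28 (SE of 0.103, adjusted p = 0.0237), was lost without DMSO replicate 3 (adjusted p = 0.0899), without ERKi replicate 3 (0.131) and with DESeq2 (0.0501).

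Of the JNK/p38-directed genes, DUSP10 rose. This phosphatase, known for restraining JNK and p38 in immune cells, lies on chromosome 1 (221701424 to 221742089, minus strand). It read 9.18, 8.01 and 7.11 CPM with DMSO and 13.3, 14.5 and 12.1 with ERKi, which is 0.72 on the log2 scale with an SE of 0.113 (adjusted p = 2.75e-05) and no overlap. DUSP16, a JNK-directed phosphatase on chromosome 12 (12473282 to 12562863, minus strand), read 6.67, 7.54 and 7.92 CPM with DMSO and 8.76, 8.59 and 8.29 with ERKi. Its libraries did not overlap, as in 71.1% of all genes tested. The log2 fold change of 0.21 (95% interval -0.06 to 0.49) did not pass (adjusted p = 0.158).

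Set side by side, the mean log2 fold change with ERKi was -1.32 for the ERK-selective genes, -0.27 for the nuclear broad genes and 0.46 for DUSP10 and DUSP16. The ERK-selective mean lay 1.79 below that of the JNK/p38-directed genes (difference of -1.79 on the log2 scale). It ranged from -1.81 to -1.75 over the alternatives tried. This is a description of genes chosen with earlier results known, and it carries no test. Only DUSP10 and DUSP16 stand for the second class.

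**Figure D2:**
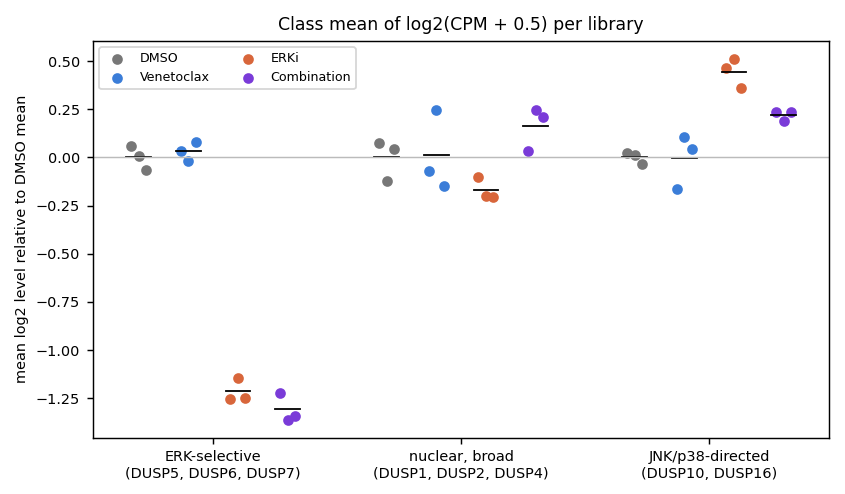
Mean of log2(CPM + 0.5) over the tested genes of each class, relative to the DMSO mean (vertical axis), for each library; points are libraries and bars group means. The ERK-selective class of the ERKi libraries lay between -1.25 and -1.14, and the JNK/p38-directed class between 0.36 and 0.51.

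The summed level per exon length shifted less than its largest single changes. The 3 ERK-selective transcripts together went from 24.1 ± 1.56 CPM per kb with DMSO to 16.5 ± 0.208 with ERKi (SD, n = 3), 68.6% of the DMSO level. Without DUSP7 the sum was at 32.1%. The nuclear broad transcripts summed to 99.4% of DMSO, since the rise of DUSP1 and the fall of DUSP2 were of similar size per length, and the JNK/p38-directed transcripts to 149%. All 9 together were at 83.0%. With the longest basic transcript as the length, the ERK-selective sum was at 72.3% and the nuclear broad sum at 93.4%. The JNK/p38-directed sum was then at 149% and that of all 9 at 82.1%.

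The order of the levels changed accordingly. DUSP7 held 55.4% ± 1.4 of the summed level of the 9 with DMSO and 53.7% ± 1.5 with ERKi (SD, n = 3). DUSP10 took the second place with 16.8% ± 1.2, after 8.45% ± 0.72 with DMSO, and DUSP1 the next with 9.73% ± 0.85, after 2.10% ± 0.21. DUSP6 went from 9.69% ± 0.36 to 1.78% ± 0.31, and its libraries overlapped those of DUSP2 at the lower end. With the longest basic transcript as the length, the share of DUSP7 was 65.6% with DMSO and 64.2% with ERKi.

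**Figure D3:**
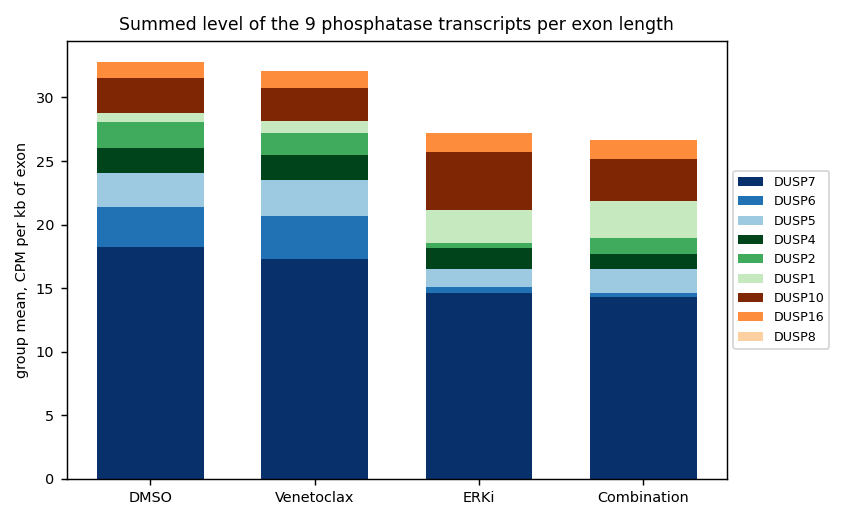
Stacked group means of the 9 transcripts in CPM per kb of exon (vertical axis, from 0) for the 4 groups, with colours for genes: blue for ERK-selective, green for nuclear broad and orange to brown for JNK/p38-directed. DUSP7 makes up 53.6% to 55.4% of every bar, while DUSP6 and DUSP2 shrink and DUSP1 and DUSP10 grow with ERKi.

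Venetoclax against DMSO asked whether BCL2 inhibition alone touches these genes, and no change passed. Of the 8 tested, 0 were called by edgeR, DESeq2 or limma-voom and 0 had an unadjusted p under 0.05 in any of these. Of all genes, 0.402% were called, 0.0198% higher and 0.382% lower. All 8 genes had overlapping groups, where 13.2% of all genes did not overlap (6.87% higher and 6.33% lower). DUSP1 had the highest point estimate, with 1.30, 2.33 and 2.07 CPM against 1.60, 1.18 and 1.42 with DMSO. The groups overlapped, and the log2 fold change of 0.44 had a 95% interval of -0.04 to 0.92. The intervals of DUSP6 (-0.18 to 0.38) and DUSP7 (-0.22 to 0.07) were narrower. DUSP2 read 3.89, 4.21 and 1.97 CPM, so that replicate 3 lay below the others and below all DMSO libraries.

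The next comparison set cells given both drugs beside DMSO. It shares its DMSO libraries with the ERKi comparison, so the values of both are given side by side and not as separate support. Of the 8, 1 rose and 5 fell, where 30.4% of all genes rose and 33.4% fell (63.8% together). The groups did not overlap in 31.6% of all genes upward and 33.8% downward (65.4% together). DUSP6 read 1.62, 1.19 and 1.0 CPM, or 32, 22 and 19 counts, and was 11.5-fold lower than with DMSO (adjusted p = 2.46e-11), against 6.55-fold with ERKi alone. DUSP1 read 5.31, 5.96 and 6.39 CPM, 4.2-fold above DMSO (adjusted p = 1.84e-07), against 3.82-fold with ERKi alone.

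DUSP5, DUSP2 and DUSP10 had means nearer to the DMSO level than with ERKi alone, and DUSP4 one further from it. DUSP5 read 5.42, 4.50 and 4.98 CPM, at -0.50 on the log2 scale (SE of 0.126, adjusted p = 0.00249), and DUSP7 read 73.3, 81.6 and 87.5 CPM, at -0.35 (SE 0.0673, adjusted p = 0.000258). DUSP4 read 8.15, 9.10 and 9.38 CPM, below all DMSO and all ERKi libraries, at -0.71 (SE of 0.107, adjusted p = 1.92e-05).

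DUSP2 read 2.12, 2.82 and 2.31 CPM. Its log2 fold change of -0.68 (SE 0.249, adjusted p = 0.0257) was lost without DMSO replicate 1 (adjusted p = 0.0684), combination replicate 1 (0.0886) or combination replicate 3 (0.0671). DUSP10 (9.21, 9.80 and 9.59 CPM) was at 0.24 and did not pass (adjusted p = 0.0876), but did without DMSO replicate 1, at 0.33 (adjusted p = 0.0251). DUSP16 (9.11, 7.96 and 8.75 CPM) was at 0.22 (95% interval -0.06 to 0.50, adjusted p = 0.149).

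The class means stood at -1.46 for the ERK-selective and 0.23 for the JNK/p38-directed genes, a difference of -1.69. Per exon length, the ERK-selective sum was at 68.5% of DMSO and the JNK/p38-directed sum at 117%. With the longest basic transcript as the length, these were 71.7% and 117%. DUSP1 reached 10.9% ± 0.38 of the summed level of the 9 and DUSP10 12.3% ± 0.51, while DUSP6 was left with 1.04% ± 0.32 (SD, n = 3).

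**Figure D4:**
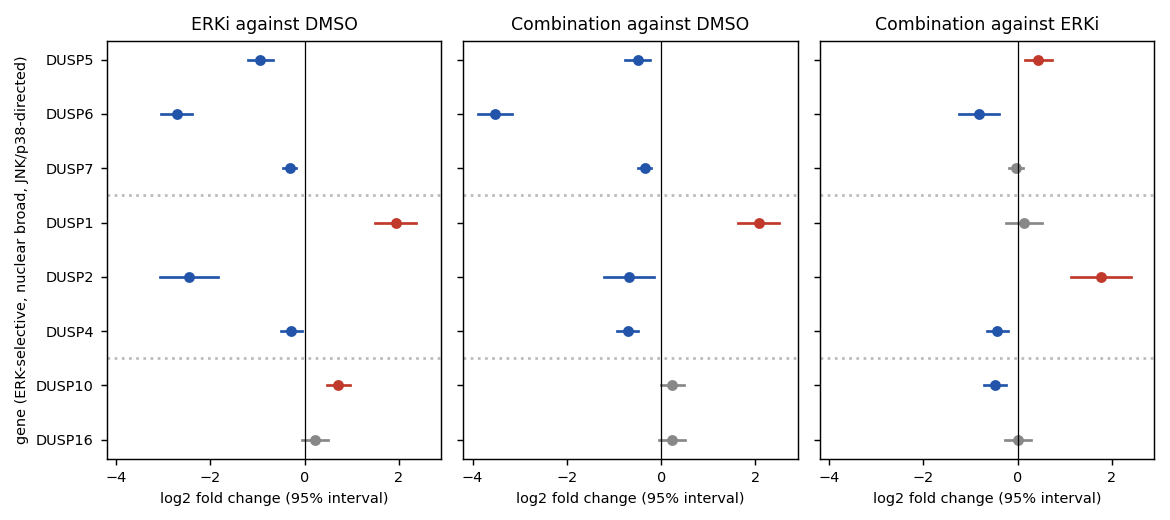
Log2 fold changes with 95% intervals (horizontal axis) of the 8 tested genes in 3 comparisons, in rows by class; red rose, blue fell, grey did not pass at an adjusted p under 0.05. DUSP6 is furthest to the left against DMSO, at -2.71 and -3.53, and DUSP2 furthest to the right in the combination against ERKi, at 1.77.

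What ERKi did on top of venetoclax was read from the combination against venetoclax. Of the 8, 2 were higher and 4 lower, where 32.1% of all genes were higher and 34.2% lower (66.2% together). The groups did not overlap in 35.2% of all genes upward and 37.4% downward (72.6% together). DUSP6 was at -3.63 (SE 0.171, adjusted p = 1.45e-11), DUSP4 at -0.65 (5.14e-05), DUSP5 at -0.57 (0.000741) and DUSP7 at -0.27 (0.00195). DUSP1 was at 1.63 (SE 0.2, adjusted p = 1.94e-06). DUSP10 was at 0.31 (adjusted p = 0.0285), a call that was lost with DESeq2 (0.0538), with no filter (0.0583), and without venetoclax replicate 1 (0.0962) or 2 (0.0737) or combination replicate 2 (0.0761) or 3 (0.0633). DUSP2 was at -0.48 and overlapped (adjusted p = 0.107), but at -0.75 (adjusted p = 0.00592) without venetoclax replicate 3. DUSP16 was at 0.15 (95% interval -0.13 to 0.43).

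What venetoclax did on top of ERKi was read from the combination against ERKi, and genes of the ERK-selective and the nuclear class went both ways. Of the 8, 2 were higher and 3 lower, where 26.5% of all genes were higher and 24.3% lower (50.9% together). The groups did not overlap in 31.1% of all genes upward and 29.8% downward (60.9% together). DUSP2 was 3.42-fold higher than with ERKi alone (log2 fold change 1.77, SE 0.299, adjusted p = 0.000124), with 42, 52 and 44 counts against 14, 12 and 19. DUSP5 was at 0.44 (SE 0.132, adjusted p = 0.0106), which was lost without combination replicate 1 (adjusted p = 0.0532). DUSP6 was lower still, at -0.81 (SE 0.2, adjusted p = 0.0029), DUSP10 at -0.48 (SE 0.113, adjusted p = 0.002) and DUSP4 at -0.43 (SE 0.108, adjusted p = 0.00313), each with no overlap of the groups.

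DUSP1 (95% interval -0.25 to 0.52), DUSP7 (-0.18 to 0.11) and DUSP16 (-0.27 to 0.29) did not pass. The class difference was 0.10, so the separation of the ERK-selective from the JNK/p38-directed mean was about as wide in the combination as with ERKi alone.

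The interaction asked whether the effect of venetoclax differed with ERKi present, taken as how far the combination lay from the single effects added up. It was called for 2 of the 8, where 39.2% of all genes were called, 21.3% above the sum and 18% below it. DUSP2 lay above the sum, at 1.98 (SE 0.385, adjusted p = 0.000798), and DUSP6 below it, at -0.91 (SE 0.24, adjusted p = 0.00654). DUSP10 (-0.41, adjusted p = 0.0577) and DUSP4 (-0.37, adjusted p = 0.0606) did not pass. DUSP10 did so without DMSO replicate 1 (adjusted p = 0.0188) or ERKi replicate 3 (0.0414) and DUSP4 without DMSO replicate 3 (0.0435) or ERKi replicate 3 (0.0234), and both with the filter of 1 CPM in 3 libraries (0.042 and 0.0451). DUSP5 (0.36, adjusted p = 0.123), DUSP1 (-0.31, 0.433), DUSP7 (0.04, 0.762) and DUSP16 (-0.06, 0.828) did not pass.

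**Figure D5:**
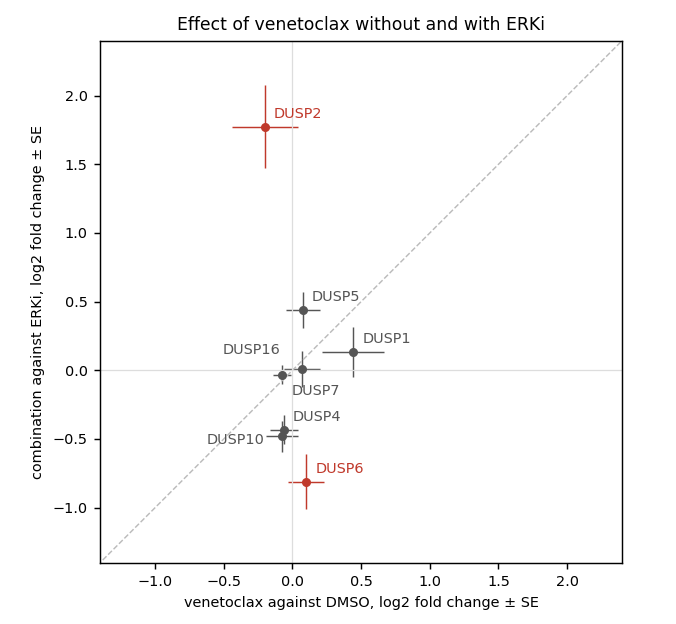
Log2 fold change of venetoclax against DMSO (horizontal axis) and of the combination against ERKi (vertical axis) for the 8 tested genes, with SE as bars; on the dashed line both effects are equal, and red marks a called interaction. DUSP2 lies above the line (-0.20 and 1.77) and DUSP6 below it (0.10 and -0.81).

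Other genes of the pathway give the setting of these values. Their counts with ERKi stand against 34.5% of all genes tested that rose, 35.2% that fell and 69.7% called in either direction. A list of atypical dual-specificity phosphatases and related genes, SSH1, SSH2, SSH3, STYX and STYXL1 included, had 14 tested. Of these 14, 8 rose and 2 fell with ERKi, with a median of 0.18, so that the number called was near that background. DUSP22, a JNK pathway phosphatase, went from 14.4 ± 1.49 CPM with DMSO to 44.3 ± 1.37 with ERKi (SD, n = 3), and the combination read 21.1 ± 1.39. Its log2 fold change with ERKi was 1.61 (adjusted p = 1.07e-11) and that of the combination against ERKi -1.07 (adjusted p = 1.23e-08). SSH2 (0.97) and STYX (0.42) rose with ERKi and DUSP12 fell by 0.49.

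Of 5 tested MAP kinase phosphatases of other families, 2 rose and 3 fell with ERKi, beside 34.5% and 35.2% of all genes. PTPN7, the haematopoietic tyrosine phosphatase of ERK and p38, went from 452.2 ± 40.0 CPM with DMSO to 233.1 ± 0.313 with ERKi (SD, n = 3), and the combination read 324.6 ± 7.65. It fell by 0.96 on the log2 scale with ERKi (adjusted p = 6.22e-11) and was at 0.48 in the combination against ERKi (adjusted p = 1.71e-06). PPP2CA, a catalytic subunit of phosphatase 2A, fell by 0.74.

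Among the kinases, 3 of 4 tested genes of the ERK arm fell with ERKi, among them the ERK activator MAP2K1 at -0.15, and none rose. In the JNK and p38 arm 2 of 10 rose and 5 fell. In both arms the number called was near the 69.7% of all genes. Of the p38 genes, MAPK13 (1.42) and MAPK14 (0.27) rose and MAPK12 (-1.09) and MAPK11 (-0.95, adjusted p = 0.00114) fell; MAPK11 was named after its values were seen. The p38 activator MAP2K6 was at -0.91 with ERKi and lower again in the combination against ERKi (-1.60, adjusted p = 1.21e-08).

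Of 17 listed ERK output genes other than phosphatases, 12 were tested and these fell with ERKi (median -1.39). Among them were ETV4 (-5.14), EGR1 (-4.32), CCND1 (-3.48) and SPRY4 (-1.11). SPRY1, SPRED3, EPHA2, EPHA4 and IER3 did not pass the filter. EPHA2 held 3, 6 and 1 counts with DMSO and 9, 7 and 8 with ERKi, and SPRED3 8, 3 and 6 against 9, 15 and 12. SPRY1 went the other way, with 1, 2 and 2 counts against 0, 0 and 1. EPHA4 and IER3 held at most 1 count per library. In the combination against ERKi 8 of the 12 were higher, such as MYC at 0.57, and 1 lower, PHLDA1 at -2.07. Of all genes, 26.5% were higher and 24.3% lower. DUSP5 and DUSP2 moved with the 8 in that comparison and DUSP6 with PHLDA1. Of 15 tested immediate early genes 10 rose and 4 fell with ERKi (median 0.84), beside 34.5% and 35.2% of all genes. FOS went from 30.9 CPM with DMSO to 158.9 with ERKi and 208.4 in the combination, and KLF4 (2.76) and KLF2 (1.78) rose with ERKi as DUSP1 did. The 4 that fell were EGR1, which is also among the ERK output genes above, NR4A1 (-1.415), ATF3 (-0.678) and IER2 (-0.158). NR4A1, ATF3 and IER2 were named after their values were seen.

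Of 7 factors known to act at phosphatase promoters, 5 rose and 2 fell with ERKi (34.5% and 35.2% of all genes), with ETS2 at 1.29, CREB1 at 0.52, NR3C1 (the glucocorticoid receptor) at 0.45 and ELK1 at -0.38. The genes of mRNA decay factors ZFP36 (1.08), ZFP36L1 (1.11) and ZFP36L2 (1.39) rose with ERKi, and ELAVL1, a stabilising factor, fell by 0.99. In the combination against ERKi, ZFP36L1 was at -1.77 and ZFP36 at -0.33. ZFP36L1 rested on low counts: 19, 26 and 13 with DMSO, 40, 46 and 42 with ERKi and 9, 19 and 5 in the combination. Bulk RNA cannot tell fewer cells of a kind from less RNA per cell, for these genes as for the phosphatases.

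The protein-coding genes with the most similar pattern were found by the root mean square difference of centred log2(CPM + 0.5) over the 12 libraries, among genes with a mean of at least 5 CPM. For DUSP6 these were ITGB5 (0.183), PPFIA2 (0.296) and DDIT4 (0.306), where DUSP6 itself varied by 1.449 about its mean. ITGB5 averaged 19.7, 19.2, 3.28 and 1.76 CPM with DMSO, venetoclax, ERKi and the combination. For DUSP2 they were ERFE (0.241), CDC20 (0.242) and RAC3 (0.248), and for DUSP1 PPARG (0.193), BEX1 (0.201) and SNX20 (0.207). DUSP5 was nearest to TFB2M (0.072), DUSP7 to GTF2B (0.051), DUSP10 to C15orf39 (0.071), DUSP4 to ZNF200 (0.086) and DUSP16 to C1orf50 (0.088). CDC20 averaged 179, 182, 48.7 and 130 CPM in the same order of groups, a partial return in the combination like that of DUSP2. With genes down to a mean of 1 CPM, 1 of the 3 genes nearest to DUSP6 and 2 of the 3 nearest to DUSP1 and to DUSP2 stayed among the nearest.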

How the data were processed

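The authors deposited raw read counts for 54628 gene symbols in 12 libraries. The submitters' processing notes name HISAT2, HTSeq, DESeq2 and hg38; versions, annotation release and strand setting are unstated in the sources used. Groups and replicate numbers come from the labels. The deposited counts were fitted in edgeR 4.0.16 (R 4.3.3). First filterByExpr (minimum count 10, minimum total 15) left 15173 genes, TMM factors scaled the libraries, and 1 model over all 12 libraries with 8 residual degrees of freedom was tested by quasi-likelihood. P-values were adjusted by Benjamini-Hochberg over all genes tested and called at an adjusted p under 0.05. Rises and falls are relative to the TMM scaling. An SE is the estimate over the root of its F statistic, and 95% intervals use the moderated degrees of freedom. CPM are counts per scaled library size, times 1e+06. Exon lengths (union of exons) came from GENCODE 29, gene positions and promoter windows from RefSeq (GRCh38.p14), in which all 9 genes were found. The pipeline was tested on simulated counts.

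The genes, classes and gene lists were chosen with earlier results of these data known. The rule for named genes took all 9 phosphatases and DUSP9, the 3 most similar genes of each tested one, and from each list up to 4 called genes by adjusted p with ERKi and up to 2 in the combination against ERKi; the text names those most useful beside the phosphatases. Alternatives were RLE factors, DESeq2 1.42.0, limma-voom (limma 3.58.1), leaving the low counts in, asking for 1 CPM in 3 libraries, a block for the replicate number, fits on the compared libraries alone, each library left out in turn and, added after the data were seen, another gene length. Figures were drawn with matplotlib 3.10.9.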

Additional observations from a re-analysis of the deposited data

Results flagged for a closer look

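The effect of venetoclax on DUSP2 differed with and without ERKi by 1.98 on the log2 scale (interaction, adjusted p = 0.000798), from -0.20 without to 1.77 with ERKi. Over the alternatives the difference ran from 1.71 to 2.18, with adjusted p from 5.36e-07 to 0.0034. The effect on DUSP6 differed in the other direction, by -0.91 (adjusted p = 0.00654), from 0.10 without to -0.81 with ERKi, and over the alternatives from -1.14 to -0.76, with adjusted p from 0.00275 to 0.0254. DUSP2 rested on 12 to 19 counts per library with ERKi and DUSP6 on 19 to 32 in the combination. The summed fibroblast markers, at 2.1 to 2.48 CPM in the combination against 10.4 to 25.2 with ERKi, moved in the same comparison. Of the 4 tested, 3 were called lower, where 24.3% of all genes were. The other, PDGFRB, had means of 0.995 CPM with ERKi and 0.961 in the combination. The part of these markers was not tested.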

How the results depend on the processing

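The class differences moved by less than the spread between libraries under every alternative tried (113 values). Of 904 values of single phosphatases under the alternatives, 883 kept their side of the threshold, 13 lost a call and 8 gained one. Leaving out each library in turn gave 1 to 2 phosphatases higher for the combination against DMSO, against venetoclax and against ERKi (1, 2 and 2 with all libraries), and 1 to 3 below the sum in the interaction (1 with all). For the combination against venetoclax, DESeq2 and no filter gave 1 higher in place of 2. For the interaction the filter of 1 CPM in 3 libraries gave 3 below the sum. Without DMSO replicate 1 the counts of phosphatases were 2 higher and 5 lower with ERKi and 2 higher and 4 lower in the combination. Over all genes, venetoclax called 3 higher and 58 lower; DESeq2 gave 12 higher, no filter 74 and 168, only the libraries compared 1 and 32, the replicate block 1 higher, and leaving out each library 1 to 17 higher and 30 to 81 lower. The cause was not tested.

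Over all genes tested, same-numbered libraries did not deviate together: the correlation of their deviations from the group means ran from -0.085 to 0.072 in 18 pairs, and 2 of 12 libraries were closest to their own number. Single genes can still follow the number, as KRT19 did, with counts only in replicate 2 of DMSO, venetoclax and ERKi. With the replicate block the counts of phosphatases were the same in all comparisons, such as 2 higher and 5 lower with ERKi. The filter on low counts left DUSP8 untested, and DUSP9 held 0 or 1 count per library with ERKi and in the combination.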
